A study of Mus musculus with 4 samples.

Results

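The keratin gene family was followed in whole gonads of male mouse embryos from embryonic day 12.5 to 15.5 (E12.5 to E15.5), as every gene whose symbol is Krt plus a digit. Of 55 such genes in the RefSeq annotation of GRCm38.p6, which include 2 pseudogenes, 38 had a probe with a RefSeq accession, out of 33390 gene names on the array. Where a gene had several probes, the probe of highest mean was used. The samples were gonads of 4 stages a day apart, E12.5, E13.5, E14.5 and lastly E15.5, all male, wild type and of the mouse line that the labels call MCH, with 2 one-colour Agilent arrays at each stage. The series text calls the arrays of a stage biological duplicates, and the labels do not say how many embryos went into an array. All 8 Sertoli cell, 3 germ cell and 3 Leydig cell markers, cell types present in a fetal testis, were well above background on all 8 arrays. Each level below is the log2 processed signal of a probe minus the 75th percentile of its array, so a level of 0 equals that percentile, and levels of different probes are not compared. A whole gonad is a mixture, so fewer cells of a type and less RNA per cell cannot be told apart.

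Keratins are the intermediate filament proteins of epithelial cells, and each filament needs an acidic type I partner and a basic type II partner. Simple epithelial keratins, among them the pair Krt8 and Krt18, fill single-layered epithelia and are found in fetal Sertoli cells. Hair type keratins belong to the hair follicle, those of the inner root sheath to the sleeve that moulds the growing hair and those of the shaft to the hair itself. Stratified epithelial keratins mark the layers of skin, mouth and cornea. By these textbook classes the 38 genes comprised 4 simple epithelial, 3 other simple or glandular, 18 stratified epithelial, 4 inner root sheath and 8 hair shaft keratins, and 1, Krt88, was not placed. Krt75, a keratin of the hair follicle's companion layer, was counted as stratified and not as hair type. Of the 38, 19 lay in the type I cluster on chromosome 11 and 19 on chromosome 15, where Krt18 lies beside Krt8 among the type II genes. The genes were chosen by symbol, but their probes were selected on mean level, and the contrast of simple epithelial with hair type keratins was selected on levels and background flags of these arrays from E12.5 to E15.5. That contrast is therefore a description with no test.

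Promoter sequences are shown for the 4 inner root sheath keratins with a probe, whose levels were higher at E15.5 than at E12.5, and for the pair Krt8 and Krt18, which was not called in any of the 4 comparisons made. They are the 250 bases before the annotated start, from RefSeq on GRCm38.p6, written 5′ to 3′ on the gene's strand. Krt25 lies at chr11:99322952-99323201, Krt26 at chr11:99337966-99338215, Krt27 at chr11:99351119-99351368, Krt71 at chr15:101743098-101743347 and Krt8 at chr15:102004343-102004592, all on the minus strand, and Krt18 at chr15:102027966-102028215 on the plus strand. Capitals mark TATAAA, the TATA box letters, and AGATAA, letters bound by GATA factors. AGATAA was picked after these sequences had been seen.
Krt25: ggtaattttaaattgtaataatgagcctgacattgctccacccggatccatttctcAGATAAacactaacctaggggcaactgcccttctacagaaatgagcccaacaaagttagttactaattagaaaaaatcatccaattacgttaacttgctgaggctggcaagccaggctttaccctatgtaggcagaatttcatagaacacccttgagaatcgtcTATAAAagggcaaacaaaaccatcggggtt
Krt26: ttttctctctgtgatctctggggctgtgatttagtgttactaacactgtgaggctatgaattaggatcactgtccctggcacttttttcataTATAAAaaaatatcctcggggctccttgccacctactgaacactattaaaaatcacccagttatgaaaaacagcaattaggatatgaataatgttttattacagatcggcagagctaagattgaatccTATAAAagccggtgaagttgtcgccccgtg
Krt27: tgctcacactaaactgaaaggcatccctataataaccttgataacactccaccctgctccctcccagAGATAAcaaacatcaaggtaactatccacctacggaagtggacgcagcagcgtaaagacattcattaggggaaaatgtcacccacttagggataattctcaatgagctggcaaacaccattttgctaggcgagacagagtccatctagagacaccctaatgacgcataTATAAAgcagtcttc
Krt71: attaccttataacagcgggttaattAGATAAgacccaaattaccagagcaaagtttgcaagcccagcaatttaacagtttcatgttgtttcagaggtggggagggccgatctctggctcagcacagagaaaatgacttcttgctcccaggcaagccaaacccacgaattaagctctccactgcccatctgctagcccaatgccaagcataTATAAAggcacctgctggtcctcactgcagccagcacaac
Krt8: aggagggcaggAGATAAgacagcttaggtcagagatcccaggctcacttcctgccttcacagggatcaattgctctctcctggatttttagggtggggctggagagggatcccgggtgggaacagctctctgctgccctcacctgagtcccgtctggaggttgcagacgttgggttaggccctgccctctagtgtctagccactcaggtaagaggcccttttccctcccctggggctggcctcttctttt
Krt18: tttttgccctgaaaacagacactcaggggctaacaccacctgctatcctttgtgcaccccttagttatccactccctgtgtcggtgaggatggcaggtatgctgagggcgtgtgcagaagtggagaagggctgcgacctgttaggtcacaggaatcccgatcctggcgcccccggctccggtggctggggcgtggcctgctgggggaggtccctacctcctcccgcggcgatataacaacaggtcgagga

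TATAAA, searched on both strands, stood in the 250 bases of 4 of 4 inner root sheath promoters, 3 of 4 hair shaft promoters and 0 of 3 simple epithelial promoters. It stood in 3 of 11 stratified and 1 of 2 other simple or glandular promoters, 45.8% of the 24 keratin promoters in all, against 12.4% of the 32851 promoters in the table. It began 30 bases before the start in Krt25 and Krt26, 15 in Krt27 and 40 in Krt71, and Krt26 held another at 158. AGATAA stood in 3 of 4 inner root sheath promoters (Krt25, Krt27 and Krt71), in 0 of 4 hair shaft promoters and in 1 of 3 simple epithelial ones (Krt8). With 3 of 11 stratified and 1 of 2 other simple or glandular promoters this made 33.3% of keratin promoters, against 9.99% of all promoters. CTTTGA, the letters bound by LEF and TCF factors, stood in 0 of 4 inner root sheath and 2 of 4 hair shaft promoters and in 20.8% of keratin promoters, against 13.8% of all. No motif overlapped another in the 6 sequences shown. The table matched 24 of the 38 genes. The hair shaft promoters were those of Krt31, Krt34, Krt82 and Krt84. The hair shaft keratins called higher at E15.5 than at E12.5, Krt33a, Krt35, Krt86 and Krt87, were not among them. A match describes letters in this window and nothing more.

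More hair type keratins were well above background at the later stages, while the 4 simple epithelial keratins were so at every stage. Of the 4 inner root sheath keratins, 1, 1, 3 and 4 gave such signal on both arrays from E12.5 to E15.5 in stage order, and of the 8 hair shaft keratins 1, 1, 4 and 6 did. Of the 18 stratified keratins 10, 12, 12 and 12 did. Over all 38 keratins the counts were 19, 22, 26 and 29. Krt25, Krt26, Krt33a, Krt76, Krt86 and Krt87 were well above background on both E15.5 arrays and on no E12.5 or E13.5 array. These were 6 of 38 keratins (15.8%), against 404 of all gene names on the array (1.21%). Krt4, Krt6b and Krt82 were not well above background on any array (7.89%), against 24.8% of gene names, and 17 keratins (44.7%) were so on all 8 arrays, against 53.6%.

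**Figure D1:**
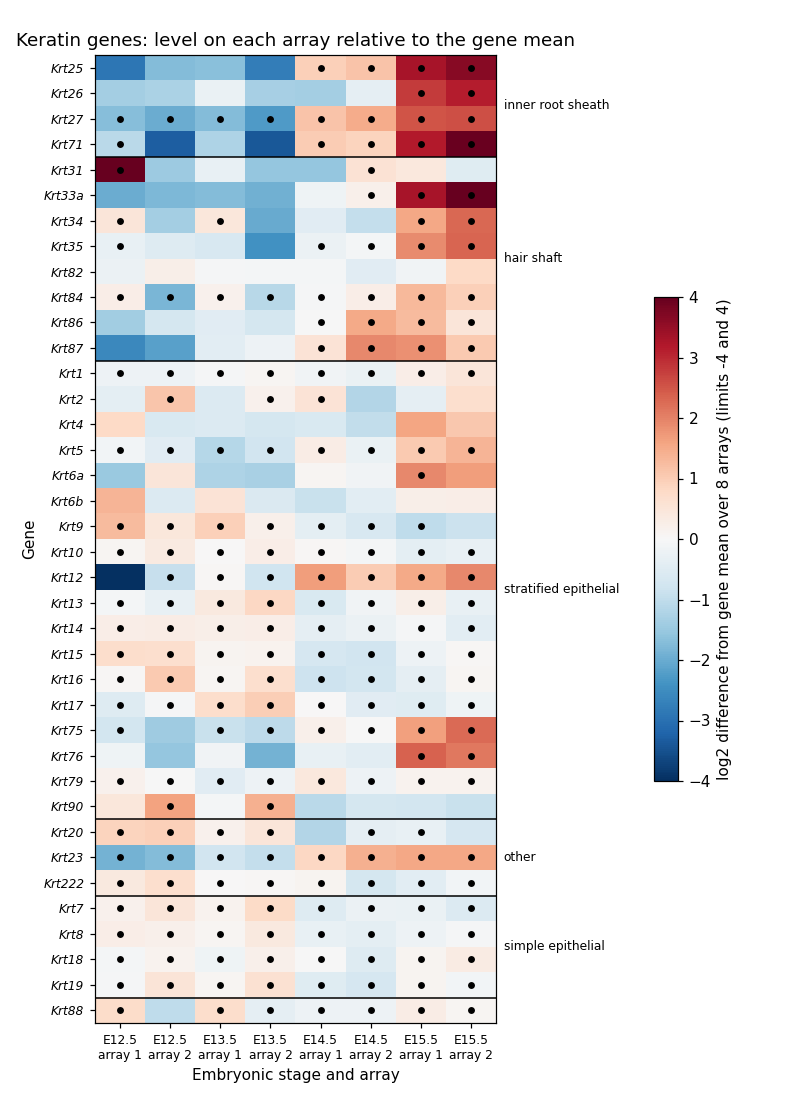
Level of each of the 38 keratins on each of the 8 arrays, in columns by stage and in rows by class. Colour gives the difference on the log2 scale from the gene's own mean over 8 arrays, and a dot marks a spot well above background. The inner root sheath and hair shaft rows gain dots and colour at E14.5 and E15.5, and the 4 simple epithelial rows hold dots on all 8 arrays.

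A gene was called between stages at an adjusted p under 0.05 in limma, with Benjamini-Hochberg adjustment over all 21986 genes tested. Of these, 13475 had a symbol and the others only a name from the files. Shares of all genes and of gene names on the array include both kinds. Of the 38 keratins, 31 passed the filter, which asks that some stage have both its arrays well above background. The 7 that did not pass were Krt2, Krt4, Krt6a, Krt6b, Krt31, Krt82 and Krt90. A keratin that passed only through the stage where it was bright had to differ, so counts over the 31 describe them and support nothing further. Between E15.5 and E12.5, 17 of 31 were called, 14 higher and 3 lower, where 34.8% of all genes tested were called, 17.9% higher and 17% lower. The stages did not overlap for 24 of 31, against 73.9% of all genes. The median change was 0.57 log2 units over the 31 keratins and -0.06 over all genes. The earlier arrays and the later arrays sat on different slides and were read with different software versions. Stage cannot be told apart from slide and software version in this comparison.

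By class, 4 of 4 tested inner root sheath keratins and 4 of 6 hair shaft keratins were higher at E15.5 than at E12.5. So were 5 of 13 stratified keratins, Krt75 among them, and 1 of 3 other simple or glandular keratins, against 17.9% of all genes. Lower were 2 of 13 stratified and 1 of 3 other simple or glandular keratins, against 17% of all genes. Of the 4 simple epithelial keratins none was called by limma, and 1 of 4 had an unadjusted p under 0.05. The median change was 5.07 in the inner root sheath class, or 4.24 with genes dim at E12.5 put at their bound, and 2.43 or 2.13 in the hair shaft class. It was 0.06 in the stratified class and -0.29 in the simple epithelial class. With 1 array left out, the 17 calls became 10 without E12.5 array 2 and 8 without E15.5 array 2. Of the single calls, Krt15 and Krt86 held in 4, Krt20 and Krt76 in 5 and Krt5, Krt12 and Krt35 in 6 of 8 such fits. Under normexp background correction the 17 became 2, and 16 once 3 extreme background values had been replaced.

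**Figure D2:**
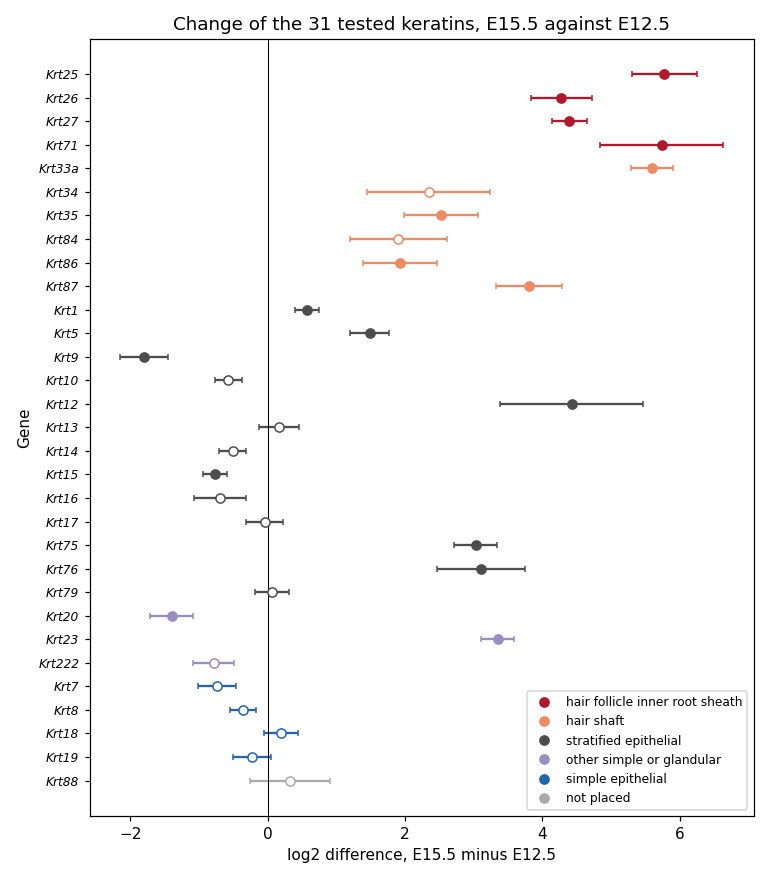
Difference of the 31 tested keratins at E15.5 against E12.5 on the log2 scale, 1 row per gene, coloured by class, with the limma standard error as bars. Filled points were called and open points were not. Krt25, Krt26, Krt33a, Krt76, Krt86 and Krt87 were not well above background at E12.5, so their plotted differences are not measured sizes and the text gives them as bounds. Krt27 lies at 4.40 and Krt23 at 3.35, and the 4 simple epithelial keratins between -0.74 and 0.20.

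In the inner root sheath class, Krt25, a type I keratin, had levels of -8.27 and -7.14 at E12.5, -7.06 and -8.16 at E13.5, -4.43 and -4.26 at E14.5, and -2.09 and -1.75 at E15.5 (array 1 and array 2 of each stage, the order used throughout). No E12.5 or E13.5 array was well above background, and both later stages lay above them without overlap. Krt25 stood at least 17.0-fold higher in E15.5 gonads than at E12.5 (adjusted p = 0.000429) and at least 3.02-fold higher at E14.5 than at E13.5 (adjusted p = 0.0137). Such a bound sets the mean of the bright stage against the higher of the probe's own level and the lowest signal well above background on each dim array. At E15.5 against E14.5, both well above background, Krt25 differed by 2.42 ± 0.47 log2 units and was not called (adjusted p = 0.109). Under normexp the sign of E14.5 against E13.5 turned, to -0.91.

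Krt26, the type I neighbour of Krt25, appeared a stage later. Its levels were -8.41 and -8.31 at E12.5, -7.32 and -8.39 at E13.5, -8.40 and -7.41 at E14.5, and -4.25 and -3.91 at E15.5. The E15.5 arrays were the only 2 well above background, and they lay above the other 6. In E15.5 gonads Krt26 exceeded E14.5 at least 4.42-fold (adjusted p = 0.0249) and E12.5 at least 3.82-fold (adjusted p = 0.000985). The first of these calls held in 2 of 8 fits that each left out 1 array.

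Krt27, next to Krt26 in the cluster, was well above background on all 8 arrays. It read -4.48 and -4.75 at E12.5, -4.49 and -5.03 at E13.5, -1.63 and -1.29 at E14.5, and -0.25 and -0.18 at E15.5. The first 2 stages overlapped and each later stage stood above them. Krt27 rose at E14.5 relative to E13.5 by 3.30 ± 0.25 log2 units (SE, n = 2 arrays a stage, as for every ± below, adjusted p = 0.00411). At E15.5 it was 4.40 ± 0.25 above E12.5 (adjusted p = 0.000154), and the difference from E14.5, 1.24 ± 0.25, was not called (adjusted p = 0.114).

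Krt71, the type II keratin of the inner root sheath and the only tested partner of the 3 type I genes there, had levels of -5.78 and -8.01 at E12.5, -5.95 and -8.11 at E13.5, -3.70 and -3.83 at E14.5, and -1.54 and -0.76 at E15.5. It was well above background on 1 of 2 E12.5 arrays and on no E13.5 array, and both later stages stood above all earlier arrays. Krt71 was 5.74 ± 0.90 log2 units higher at E15.5 than at E12.5 (adjusted p = 0.00437), and 4.63 without E12.5 array 2. No size is given with array 1 of that stage left out, since its other array was not well above background. At E14.5 it was at least 4.51-fold above E13.5, which missed the threshold (adjusted p = 0.0616). Its arrays on slide 1 were above those on slide 2 at both early stages.

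**Figure D3:**
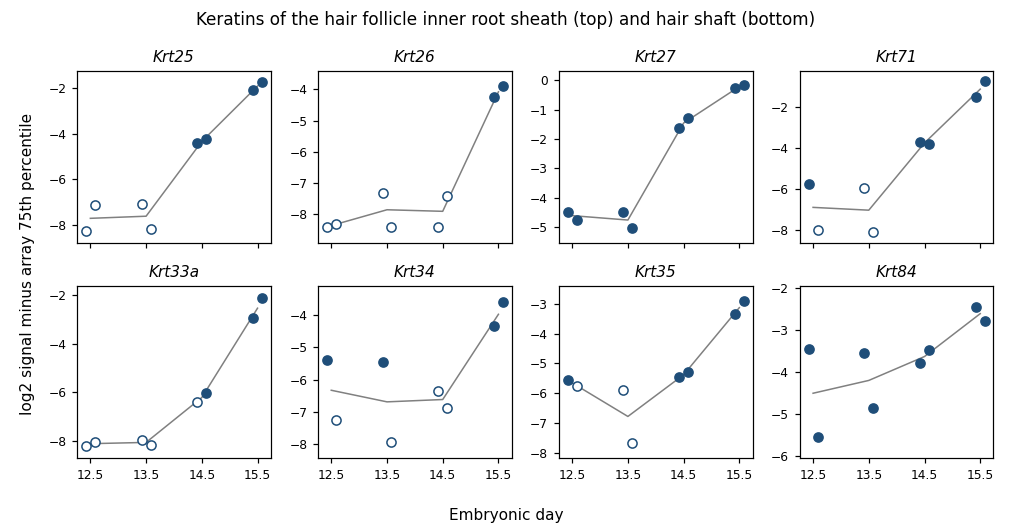
Levels of hair type keratins on each array by embryonic day, as log2 signal minus the array's 75th percentile. Filled points are well above background, open points are not, and lines join stage means, with vertical axes that differ between panels. Krt25 and Krt33a have open points at E12.5 and E13.5 and filled points on both arrays at E15.5.

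Among hair shaft keratins, Krt33a, a type I keratin, was at -8.22 and -8.04 at E12.5, -7.99 and -8.17 at E13.5, -6.41 and -6.04 at E14.5, and -2.95 and -2.11 at E15.5. Of the E14.5 arrays 1 of 2 was well above background, both E15.5 arrays were, and no earlier array was. Krt33a stood at least 11.2-fold higher in E15.5 gonads than at E12.5 (adjusted p = 0.000142) and was called higher at E15.5 than at E14.5, by 3.69 ± 0.31 log2 units (adjusted p = 0.0154), a call that held in 5 of 8 fits that left out 1 array. It was also called higher at E14.5 than at E13.5 (adjusted p = 0.0184), where its bound stays under 1 and no fold is given. The sign of that comparison turned under normexp, to -1.53, and to -0.13 with extreme background values replaced.

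Krt35, an early type I keratin of the forming hair shaft, had levels of -5.55 and -5.76 at E12.5, -5.89 and -7.67 at E13.5, -5.46 and -5.30 at E14.5, and -3.36 and -2.90 at E15.5. Only E12.5 array 1 of the 4 early arrays was well above background, and E15.5 stood above all other arrays. The E15.5 level was 2.52 ± 0.54 above E12.5 (adjusted p = 0.0132).

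The type II shaft keratins Krt86 and Krt87 came up together. Krt86 was at -6.73 and -6.01 at E12.5, -5.79 and -6.02 at E13.5, -5.34 and -3.80 at E14.5, and -4.06 and -4.82 at E15.5. Krt87 had levels of -8.28 and -7.87 at E12.5, -6.13 and -5.92 at E13.5, -5.15 and -3.77 at E14.5, and -3.88 and -4.67 at E15.5. Neither was well above background before E14.5, and their later arrays overlapped between E14.5 and E15.5. At E15.5 Krt87 was at least 3.35-fold above E12.5 (adjusted p = 0.00209) and Krt86 at least 2.97-fold (adjusted p = 0.0339). The Krt86 call held in 4 of 8 fits that left out 1 array (highest adjusted p = 0.145, without E15.5 array 1), and the Krt87 call in 8 of 8. They are close paralogs with nearly parallel values on the last 4 arrays, and whether their probes share transcripts was not tested, since no probe sequences were used here.

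Krt84, a type II keratin of nail and tongue papillae, was well above background on all 8 arrays, at -3.46 and -5.56 at E12.5, -3.55 and -4.85 at E13.5, -3.79 and -3.47 at E14.5, and -2.44 and -2.77 at E15.5. E15.5 lay above the other arrays, yet the difference from E12.5, 1.90 ± 0.71, was not called (adjusted p = 0.0799), with the E12.5 arrays 1 and 2 far apart. Krt34 differed by 2.35 ± 0.90 (adjusted p = 0.0857), with 1 of 2 E12.5 arrays well above background. Krt31 was not tested, having been well above background on no stage's 2 arrays together. It read -2.41 on E12.5 array 1 and between -8.29 and -6.16 on the other 7.

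Calls of stratified epithelial keratins at E15.5 against E12.5 went in both directions. Higher were 5 of 13 and lower 2 of 13, against 17.9% and 17% of all genes. Krt75, of the companion layer that lines the inner root sheath, was at -5.08 and -5.78 at E12.5, -5.23 and -5.40 at E13.5, -4.15 and -4.38 at E14.5, and -2.71 and -2.09 at E15.5. Apart from E12.5 array 2 every array was well above background, and each of the later stages stood above the one before it. Krt75 was 3.03 ± 0.31 log2 units higher at E15.5 than at E12.5 (adjusted p = 0.000962).

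Krt76, of palate and gum, was at -6.47 and -7.83 at E12.5, -6.42 and -8.18 at E13.5, -6.58 and -6.70 at E14.5, and -3.92 and -4.16 at E15.5. It was well above background on the E15.5 arrays and no others, at least 3.92-fold above E12.5 (adjusted p = 0.0117). Krt12, the keratin of the corneal epithelium, was at -8.26 and -4.72 at E12.5, -3.72 and -4.57 at E13.5, -2.10 and -2.76 at E14.5, and -2.26 and -1.86 at E15.5. The single array not well above background was E12.5 array 1. Krt12 was 4.43 ± 1.04 above E12.5 at E15.5 (adjusted p = 0.0187), and 2.66 without that array (adjusted p = 0.0131).

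Krt5, the type II keratin of basal epidermal cells, read -4.05 and -4.42 at E12.5, -5.10 and -4.71 at E13.5, -3.65 and -4.22 at E14.5, and -2.91 and -2.59 at E15.5. E15.5 was above all other arrays, 1.49 ± 0.28 log2 units over E12.5 (adjusted p = 0.00906). Its basal type I partner Krt14 went with no call, at -0.88 and -0.85 at E12.5, -0.89 and -0.86 at E13.5, -1.52 and -1.39 at E14.5, and -1.17 and -1.57 at E15.5. Krt14 differed by -0.51 ± 0.20 between E15.5 and E12.5 (adjusted p = 0.0894), opposite in sign to Krt5.

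Krt1 and Krt10 are the pair of suprabasal epidermis. Krt1 had levels of -4.78 and -4.76 at E12.5, -4.60 and -4.48 at E13.5, -4.72 and -4.83 at E14.5, and -4.29 and -4.10 at E15.5. It was called at 0.57 ± 0.17 log2 units above E12.5 (adjusted p = 0.0439), and under normexp, with or without replacement, its sign turned, to -0.10. The call held in 2 of 8 fits that left out 1 array. Krt10 read 1.50 and 1.77 at E12.5, 1.42 and 1.67 at E13.5, 1.45 and 1.33 at E14.5, and 1.02 and 1.10 at E15.5, a difference of -0.57 ± 0.19 at E15.5 against E12.5 that was not called (adjusted p = 0.0604).

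Krt15, of basal cells and the hair bulge, fell. It read -1.94 and -1.96 at E12.5, -2.51 and -2.50 at E13.5, -3.30 and -3.39 at E14.5, and -2.84 and -2.58 at E15.5, with no overlap between any 2 stages. The change was -0.84 ± 0.18 at E14.5 against E13.5 (adjusted p = 0.0315) and -0.76 ± 0.18 at E15.5 against E12.5 (adjusted p = 0.0176). Krt17, an early keratin of skin appendages, was at 0.07 and 0.52 at E12.5, 1.28 and 1.56 at E13.5, 0.59 and 0.11 at E14.5, and 0.11 and 0.39 at E15.5. The 2 highest arrays were those of E13.5. Krt17 fell by 1.07 on the log2 scale at E14.5 relative to E13.5 (SE 0.27, adjusted p = 0.0483).

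Krt9, of palm and sole epidermis, was at -3.17 and -3.97 at E12.5, -3.47 and -4.22 at E13.5, -4.82 and -5.06 at E14.5, and -5.44 and -5.30 at E15.5. It was well above background on all arrays except E15.5 array 2, and was lower at E15.5 than at E12.5, at -1.80 ± 0.35 log2 units (adjusted p = 0.00963). Krt13, of mouth and oesophagus, read -3.52 and -3.73, -3.04 and -2.59, -4.04 and -3.57, and -3.18 and -3.74 in stage order. Krt16, induced in stressed skin, read -1.77 and -0.76, -1.73 and -1.15, -2.63 and -2.55, and -2.18 and -1.74. A second Krt13 probe was well above background on no array. Krt13 and Krt16 were called in no comparison, nor was Krt79, a keratin of the hair canal, at -0.81 and -1.004, -1.46 and -1.21, -0.57 and -1.20, and -0.85 and -0.85.

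Among the other simple or glandular keratins, Krt23, an epithelial type I keratin, read -3.50 and -3.36 at E12.5, -2.38 and -2.58 at E13.5, -0.81 and -0.20 at E14.5, and -0.07 and -0.08 at E15.5. No stage overlapped the one before it. Krt23 was higher at E14.5 than at E13.5 by 1.97 ± 0.24 log2 units (adjusted p = 0.00950) and higher at E15.5 than at E12.5 by 3.35 ± 0.24 (adjusted p = 0.000282). Krt20, of gut and urinary tract lining, went the other way, at -3.92 and -3.84 at E12.5, -4.63 and -4.30 at E13.5, -5.96 and -5.13 at E14.5, and -5.09 and -5.46 at E15.5. At E15.5 it was lower than at E12.5, at -1.40 ± 0.31 (adjusted p = 0.0153), with 1 of 2 arrays well above background at E14.5 and at E15.5. Krt222 was at -1.39 and -1.09, -1.77 and -1.72, -1.66 and -2.48, and -2.19 and -1.87 in stage order, and was not called. Nor was Krt88, the keratin outside the classes, which differed by 0.33 ± 0.58 between E15.5 and E12.5.

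**Figure D4:**
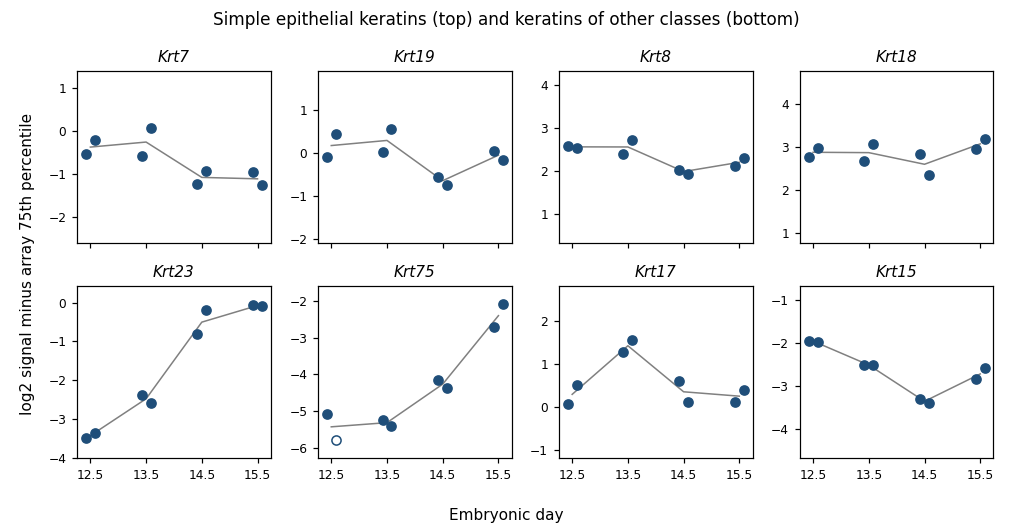
Levels of the 4 simple epithelial keratins (top) and of 4 keratins of other classes (bottom) on each array, as log2 signal minus the array's 75th percentile, with lines through stage means. Open points are not well above background. Vertical axes differ between panels. Krt8 and Krt18 stay within 1.94 to 3.20, while Krt23 reads -3.50 and -3.36 at E12.5 and -0.07 and -0.08 at E15.5.

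The simple epithelial keratins were well above background on all 8 arrays, and limma called none of the 4 in any of the 4 comparisons. At an unadjusted p under 0.05 there were 3 of 4 at E14.5 against E13.5, 1 of 4 at E15.5 against E12.5, and 0 in the other comparisons. Krt8 had levels of 2.58 and 2.54 at E12.5, 2.40 and 2.72 at E13.5, 2.03 and 1.94 at E14.5, and 2.11 and 2.29 at E15.5. Its partner Krt18 had 2.77 and 2.99 at E12.5, 2.68 and 3.07 at E13.5, 2.85 and 2.35 at E14.5, and 2.95 and 3.20 at E15.5. At E15.5 against E12.5 Krt8 differed by -0.36 ± 0.19 log2 units (95% interval -0.82 to 0.10, adjusted p = 0.186) and Krt18 by 0.20 ± 0.25 (-0.41 to 0.80, adjusted p = 0.576). A second Krt8 probe, also well above background on all 8 arrays, gave -0.09.

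Krt7 and Krt19, keratins of ducts and mesothelium, were lowest at E14.5 or E15.5. Krt7 was at -0.54 and -0.23 at E12.5, -0.59 and 0.05 at E13.5, -1.24 and -0.94 at E14.5, and -0.97 and -1.27 at E15.5. Krt19 was at -0.11 and 0.44 at E12.5, 0.01 and 0.55 at E13.5, -0.56 and -0.75 at E14.5, and 0.04 and -0.16 at E15.5. Krt7 did not overlap between E15.5 and E12.5, with a difference of -0.74 ± 0.28 (95% interval -1.40 to -0.07, adjusted p = 0.0820), and Krt19 overlapped, with -0.22 ± 0.28 (-0.89 to 0.44, adjusted p = 0.557). At E14.5 against E13.5 all 4 simple keratins had negative differences, the largest in size -0.94 ± 0.28 for Krt19 (adjusted p = 0.0727).

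Taken stage by stage, no keratin was called between E13.5 and E12.5 by limma, where 3.91% of all genes were, 2.72% higher and 1.18% lower. At an unadjusted p under 0.05 there were 5 of 31, and 12 of 31 did not overlap, against 51.1% of all genes. The smallest adjusted p belonged to Krt17, with a difference of 1.13 ± 0.27 (adjusted p = 0.0782) that measured 1.22 on slide 1 and 1.04 on slide 2. Krt23 followed with 0.95 ± 0.24 among keratins well above background (adjusted p = 0.0959), 1.12 on slide 1 and 0.78 on slide 2. Each of those slides held 1 array of both stages. With slide as a block in limma, no keratin was called either, where 4.42% of all genes were. Krt17 then had an adjusted p of 0.0594.

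Between E14.5 and E13.5, 6 of 31 keratins were called, Krt23, Krt25, Krt27 and Krt33a higher and Krt15 and Krt17 lower, where 12.4% of all genes were called, 6.36% higher and 6.08% lower. The stages did not overlap for 23 of 31, against 60% of all genes. The calls of Krt15 and Krt17 each held in 0 of 8 fits that left out 1 array. Stage, slide and software version cannot be told apart here either. The 6 calls became 1 without E13.5 array 2 and 2 without E14.5 array 1, and 0 under normexp (12 at an unadjusted p under 0.05).

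E15.5 and E14.5 were hybridised on 1 slide. Krt26 and Krt33a were the 2 of 31 keratins called there, both higher, where 0.646% of all genes were called and 0.55% were higher. The stages did not overlap for 21 of 31 keratins, against 36.4% of all genes, and 27 of 31 had a positive difference (87.1%), against 51.3% of all genes. Some of these signs depend on the scaling. Krt8, Krt14, Krt79, Krt86, Krt87 and Krt222 had small positive differences here, the largest 0.22 for Krt8. They were negative in the ratios deposited by the authors, and the other positive differences kept their sign. With slide as a block, 5 keratins were called higher, where 1.01% of all genes were called. Both stages lay on the same slide, so the block corrected no difference between them and changed only the estimated spread. For Krt71 the SE went from 0.90 to 0.28. The block added Krt71, 2.61 log2 units higher (adjusted p = 0.0330), Krt34, at least 4.73-fold higher (adjusted p = 0.0432), and Krt76, at least 4.54-fold higher (adjusted p = 0.0257). Krt34 and Krt76 were well above background on neither E14.5 array. Krt26, Krt33a, Krt34 and Krt76 passed the filter only through E15.5, so the counts here describe the keratins and support nothing further. The 2 calls became 0 without E14.5 array 1, E14.5 array 2 or E15.5 array 2, and 1 without E12.5 array 1, E12.5 array 2 or E15.5 array 1. With only the 4 arrays compared they also became 0 (14 at an unadjusted p under 0.05).

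Genes that act with keratins were set beside them at E15.5 against E12.5. Desmosomes anchor keratin filaments at cell contacts, and of 12 tested desmosome and plakin genes 3 were higher and 1 lower, against 17.9% and 17% of all genes. Pkp3, a plakophilin of desmosomal plaques, read -4.26 and -4.28 at E12.5, -5.03 and -3.82 at E13.5, -2.19 and -2.10 at E14.5, and -0.17 and 0.33 at E15.5, and was 4.35 ± 0.39 log2 units above E12.5 at E15.5 (adjusted p = 0.000605). Perp was 2.56 ± 0.31 higher (adjusted p = 0.00177), Pkp1 2.66 ± 0.71 higher (adjusted p = 0.0282, 1 of 2 E12.5 arrays well above background) and the desmoglein Dsg2 lower, at -1.08 ± 0.18 (adjusted p = 0.00549). Dsg3, Dsg4, Dsc1, Dsc3 and Eppk1 were well above background on no array.

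Epithelial junction and polarity genes were divided, 4 higher and 4 lower of 13 tested at E15.5 against E12.5, where 17.9% of all genes were higher and 17% lower. The epithelial transcription factors Grhl2, at 4.93 ± 0.32 log2 units (adjusted p = 0.000216), and Ovol1, at 4.51 ± 0.54 (adjusted p = 0.00169), were higher, as was the polarity gene Crb3, at 2.61 ± 0.43 (adjusted p = 0.00527). Cdh1, the epithelial cadherin, was lower, at -3.18 ± 0.27 (adjusted p = 0.000476). Its levels were 0.90 and 0.49 at E12.5, 0.61 and 0.42 at E13.5, -0.23 and -0.86 at E14.5, and -2.44 and -2.53 at E15.5. The called hair type keratins and Cdh1 ran in opposite directions over the same arrays.

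**Figure D5:**
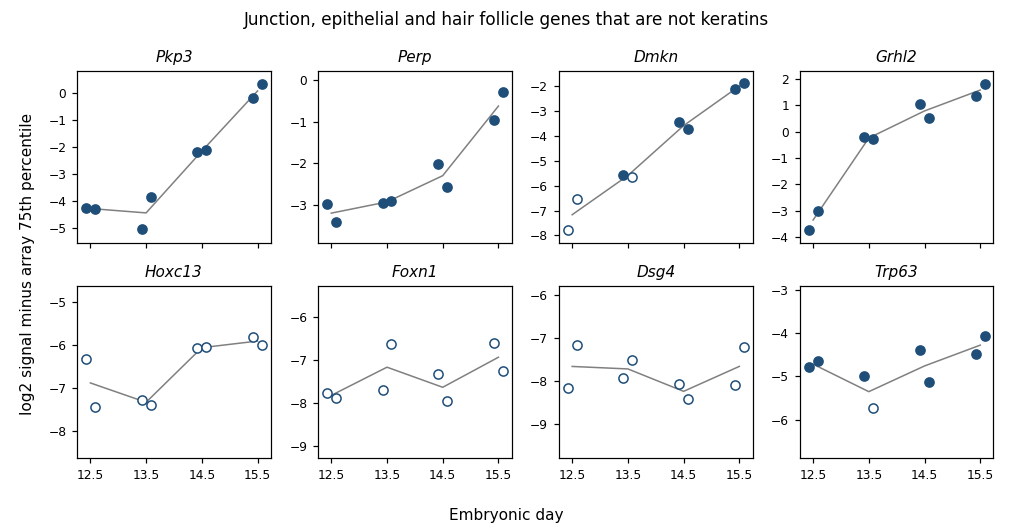
Levels of 8 junction, epithelial and hair follicle genes other than keratins on each array by embryonic day, as log2 signal minus the array's 75th percentile, with lines through stage means. Filled points are well above background and open points are not, and vertical axes differ between panels. Pkp3, Perp, Dmkn and Grhl2 (top) are higher on both E15.5 arrays than on any E12.5 array, and Hoxc13, Foxn1 and Dsg4 (bottom) have open points only.

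Of 7 tested hair follicle regulators, 4 were higher and 1 lower at E15.5 than at E12.5, against 17.9% and 17% of all genes. Padi3, the deiminase that modifies hair proteins, was 1.69 ± 0.27 log2 units higher (adjusted p = 0.00487), Msx2 1.38 ± 0.21 (adjusted p = 0.00420) and Edar 1.11 ± 0.31 (adjusted p = 0.0336). Lef1 was lower, at -0.73 ± 0.20 (adjusted p = 0.0325). Shh was called higher (adjusted p = 0.00514), at -5.46 and -5.52 at E15.5, against -6.64 and -7.27 at E12.5, with 1 of 2 E15.5 arrays and no E12.5 array well above background. Hoxc13 and Foxn1, transcription factors of the hair shaft programme, and the hair desmoglein Dsg4 were well above background on no array. Of 28 keratin associated proteins, which bind hair keratins in the shaft, 13 were well above background on no array, and of 8 tested, 1 was higher and 1 lower.

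Of 9 epidermal differentiation genes on the array 2 were well above background on no array (Ivl and Dsc3), and of 6 tested, 2 were higher at E15.5 than at E12.5, against 17.9% of all genes. Those were Perp and Dmkn. Dmkn, the gene of the secreted skin protein dermokine, was at -2.12 and -1.89 at E15.5, against -7.79 and -6.54 at E12.5, where it was not well above background (adjusted p = 0.000332). The mean level over these 9 genes was -3.33 and -3.22 at E12.5, -3.23 and -3.23 at E13.5, -2.89 and -3.24 at E14.5, and -2.67 and -2.21 at E15.5. Over 11 hair follicle regulators it was -4.46 and -4.51, -4.30 and -4.21, -3.79 and -3.84, and -3.68 and -3.55 in stage order. Both means include genes well above background on no array, Ivl and Dsc3 in the first and Hoxc13, Foxn1 and Dsg4 in the second. The readings of such genes differ between arrays. At E15.5 Ivl read -8.03 and -7.11 and Dsc3 -7.86 and -7.02, so part of a difference in these means is not measured signal. The part of skin-like cells in the keratin changes was not tested.

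Markers of other gonadal and neighbouring tissues moved over the same stages. Nephric duct markers had 1 of 7 tested genes higher and 4 lower at E15.5 than at E12.5, against 17.9% and 17% of all genes, among them Lhx1 at -5.64 ± 0.18 log2 units (adjusted p = 4.45e-05). The mean level over 8 genes was -3.23 and -3.31, -4.19 and -3.82, -5.10 and -5.18, and -5.09 and -5.06 in stage order. It includes Ret, which was well above background on no array. Coelomic and mesothelial markers had 2 of 7 higher and 2 lower, with Msln at 4.24 ± 0.23 (adjusted p = 0.000131). Lrrn4 went the other way, from -0.28 and -0.60 at E12.5 to -2.11 and -2.58 at E15.5. The mean level over the 7 coelomic and mesothelial genes lay between -0.50 and -0.22 on the 8 arrays. All 3 Leydig markers were higher, with a median change of 2.74, and 2 of 3 germ cell markers were lower. Of 8 Sertoli markers only Cldn11 was called, at -1.35 ± 0.26 (adjusted p = 0.00942). Their part in the keratin changes was not tested.

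Other intermediate filament genes had 7 of 17 tested members higher and 1 lower at E15.5 than at E12.5, against 17.9% and 17% of all genes, with a median change of 0.32. For comparison, the median E15.5 against E12.5 change was 0.33 over desmosome and plakin genes, -0.50 over junction and polarity genes, 1.11 over hair follicle regulators, 0.27 over epidermal genes and -0.81 over keratin associated proteins. It was -2.23 over nephric duct, -0.32 over coelomic, -0.30 over Sertoli and -1.06 over germ cell markers. Bfsp2, a lens filament gene, was 3.83 ± 0.34 log2 units higher (adjusted p = 0.000565, 1 of 2 E12.5 arrays well above background), and Nefm, a neurofilament subunit, 2.21 ± 0.42 higher (adjusted p = 0.00878). Prph and Sync, called higher, were well above background on both E15.5 arrays and on neither E12.5 array. Prph, the filament of peripheral neurons, was at -3.40 and -4.13 at E15.5, against -7.28 and -7.08 at E12.5 (adjusted p = 0.00255). Sync, the muscle gene of syncoilin, was at -4.33 and -4.91 at E15.5, against -6.45 and -5.92 at E12.5 (adjusted p = 0.0174). Vim, the mesenchymal filament, was well above background on all 8 arrays and was not called there.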

How the data were processed

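Gene expression was measured on 8 one-colour Agilent arrays of Cy3-labelled cRNA from whole male gonads, 2 at each of 4 stages. The deposited scanner files hold linear spot intensity, from which, per the file headers, Feature Extraction had subtracted background and spatial trends. Arrays had not been scaled to each other. The submitters' processing notes give Feature Extraction 9.5, and per the file headers it was 9.1.3.1 at E12.5 and E13.5 and 9.5.3.1 at E14.5 and E15.5. The authors also deposited a table of linear ratio values with 1 column per stage, whose centring and scaling are not given in the sources used here. It served only as a check of sign, and all 25 called keratin changes had the same sign in it, while some uncalled ones did not. Since it comes from the same samples, the shared sign is no independent support.

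Log2 processed signals were taken minus each array's 75th percentile over spots other than controls. Of 41174 probes, 28188 had both arrays of some stage well above background. RefSeq accessions in the files were matched to symbols of GRCm38.p6, which named 22951 probes (55.7%). With the probe of highest mean per gene, 21986 genes entered 1 limma fit (limma 3.58.1, R 4.3.3) over all 4 stages, with 4 residual degrees of freedom and Benjamini-Hochberg adjustment. Of these, 13475 had a symbol. Probes without a symbol were grouped by their name in the files, and each such name was counted as a gene. The number of arrays limits the precision, and a p-value here reflects no more than how the duplicates of a stage vary. Per array, 60.3% to 69.8% of probes were well above background.

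Members, classes and gene lists were chosen with earlier results of these data known. Values on every array are given for the simple keratins, the keratins called in any comparison and those well above background on all 8 arrays. Other gene lists are given as counts with up to 4 of the largest called changes, to which Lef1 was added. Perp, Gata3, Dsc3 and Dsg4 are in 2 lists each. Slide 1 held array 1 and slide 2 array 2 of E12.5 and E13.5, and slide 3 held both later stages. Array numbers did not pair the samples outside the shared slides, where deviations from stage means correlated at 0.65 across genes between E12.5 and E13.5. The fit was tested on simulated data. The normexp alternative used median in place of mean spot signals.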

Additional observations from a re-analysis of the deposited data

How the results depend on the processing

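Counts of called keratins were 0 at E13.5 against E12.5, 6 at E14.5 against E13.5, 2 at E15.5 against E14.5 and 17 at E15.5 against E12.5. Under normexp background correction they were 0 (3 at an unadjusted p under 0.05), 0 (12), 0 (1) and 2, and with 3 extreme background values replaced, an alternative chosen after seeing the data, 0, 9, 8 and 16. With probes well above background on all 8 arrays, E15.5 against E14.5 gave 0 (4 unadjusted) and E15.5 against E12.5 gave 5, since fewer keratins were tested. With only the arrays compared, E15.5 against E14.5 gave 0. Slide as a fixed replicate block gave 5 there, where it changed the estimated spread but no difference, and array number as a replicate block gave 1. The E14.5 and E15.5 deviations correlated at -0.59 across genes, so crossed array numbers on slide 3, also chosen after seeing the data, were tried as a block and gave 2 at E13.5 against E12.5 and 7 at E15.5 against E14.5. Leaving out 1 array gave 0 to 1, 1 to 6, 0 to 3 and 8 to 18 calls. The cause of the normexp differences was not tested.

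Of 438 alternative values of the 25 called changes, 331 stayed on the same side of the threshold with the same sign, 102 lost the call and 5 turned sign. Of the 25 changes, 9 were called in all fits that left out 1 array. Turned under normexp were Krt25 (-0.91) and Krt33a (-1.53, and -0.13 with replacement) at E14.5 against E13.5 and Krt1 at E15.5 against E12.5 (-0.10 under both forms). Uncalled simple keratins near 0 also changed sign. With 1 array left out, Krt18 lay between -0.21 and 0.19, Krt8 between -0.16 and 0.16, Krt19 between -0.15 and 0.39 and Krt7 between -0.20 and 0.44 at E13.5 against E12.5. Krt7 then lay between -0.18 and 0.12 at E15.5 against E14.5, and Krt19 between -0.50 and 0.049 at E15.5 against E12.5. Under median scaling Krt18 was 0.058 and Krt8 0.064 at E13.5 against E12.5, and the mean of probes gave Krt8 0.035. Under normexp Krt18 was 0.025 at E14.5 against E13.5. Median scaling moved the median of all genes at E15.5 against E14.5 to -0.13, against 0.01, and there 2 keratins were called.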
